A study of Mus musculus with 2 samples.

Results

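Ras regulators and RGS proteins are the switches that set how long small GTPases of the Ras family and heterotrimeric G proteins stay active. They were taken here as every gene whose symbol begins with Rasgrp, Rasgrf, Rasa, Rasal, Rapgef, Rassf, Rgl or Rgs followed by a digit, with the gene read from its probe set of highest mean log2 signal. This gave 52 genes, covered by 122 probe sets, of the 18193 genes that could be read from single-symbol probe sets. Expression was measured on 2 Affymetrix arrays. The first held bone marrow derived osteoclasts, which had 6 days in M-CSF, the growth factor that keeps macrophages alive, plus RANKL, the cytokine that induces osteoclasts; the second held bone marrow derived macrophages, which had 6 days in M-CSF alone. Both came from marrow of C57/Black6 mice aged 8 weeks, whose adherent cells had first been kept in M-CSF for 3 days as precursors of either cell type.

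Ras, Rap and Ral are small GTPases that signal while GTP is bound. Exchange factors load them with GTP, GTPase-activating proteins end the signal, and RASSF proteins bind the loaded form through a Ras-association domain. RGS proteins do for the alpha subunits of heterotrimeric G proteins what GTPase-activating proteins do for Ras, and so shorten the response to chemokines and other ligands of G protein-coupled receptors. In macrophages and osteoclasts these switches stand between surface receptors and adhesion, migration, calcium signals and the ERK kinases.

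In these cultures 3 neighbouring RGS genes were lower in osteoclasts than in macrophages after allowing for the overall brightness of the arrays, Rgs1 by 7.67-fold, Rgs18 by 5.34-fold and Rgs2 by 2.64-fold. The exchange factor gene Rasgrp3 was at least 3.82-fold lower and the Ras-association gene Rassf2 3.80-fold lower. On the other side, the Ras GTPase-activating gene Rasal2 was 4.93-fold higher and the Rap exchange factor gene Rapgef1 2.83-fold higher in osteoclasts, each with a second probe set that differed by less than 2-fold. Rgs10 and Rgs12, the RGS genes best known from osteoclasts, differed by less than 2-fold.

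With 1 array per cell type there was no replicate, so nothing could be tested and p-values are not given. The only error these data hold is how far probe sets of 1 gene differ from each other, with an SD of 0.43 in log2 units (12178 probe sets, 4625 genes), which contains no variation between cultures or animals. Signals in the osteoclast array were lower at the median, with a log2 difference of -0.45 over 19467 probe sets, so differences are given as log2 of osteoclast over macrophage relative to this shift, and signals are the deposited linear intensities. A signal counted as measured above the 95th percentile of 86 olfactory, vomeronasal and taste receptor probe sets, which was 25.6 in the osteoclast array and 28.0 in the macrophage array; where only 1 array passed this background level, the difference is a bound. Signals of different probe sets are not on a common scale, so levels are compared between arrays and not between genes. Summed signals of marker lists add such probe sets without the shift, so the brightest probe sets weigh most in them. All 12 osteoclast markers were at least 2-fold higher in the osteoclast array, with a summed signal of 40877 against 1418 in the macrophage array. Of 12 macrophage markers, 8 were at least 2-fold lower and none 2-fold higher, with a summed signal of 20888 in the osteoclast array and 58213 in the macrophage array. Xist, an RNA of female cells, had 22.1 in the osteoclast array and 1872 in the macrophage array. The Y-linked gene Eif2s3y had 321 in the osteoclast array and 0.571 in the macrophage array. Treatment and animal therefore cannot be told apart in any value given above or below.

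Of the 52 genes, 30 were measured in both arrays, 3 in the osteoclast array only, 5 in the macrophage array only and 14 in neither. Relative to the shift, 6 of the 38 measured genes (15.8%) were at least 2-fold higher in osteoclasts, beside a background of 6.5% over 11539 measured genes, and 10 (26.3%) were at least 2-fold lower, beside a background of 6.34%. The remaining 22 differed by less than 2-fold. The median of the measured genes was -0.15, beside 0 over all measured genes. On the deposited scale, without the shift, the split was 2 higher (background 2.65%) and 14 lower (background 16.9%), so that higher genes made up 12.5% of the 2-fold genes instead of 37.5%, while over all genes they made up 13.5% instead of 50.6%. Each of the 16 genes kept its direction on the deposited scale. The differences closest to the 2-fold line were those of Rasal3 (-1.04) and Rassf5 (-1.04) past it and of Rapgef5 (-0.88) and Rassf3 (0.86) short of it.

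**Figure D1:**
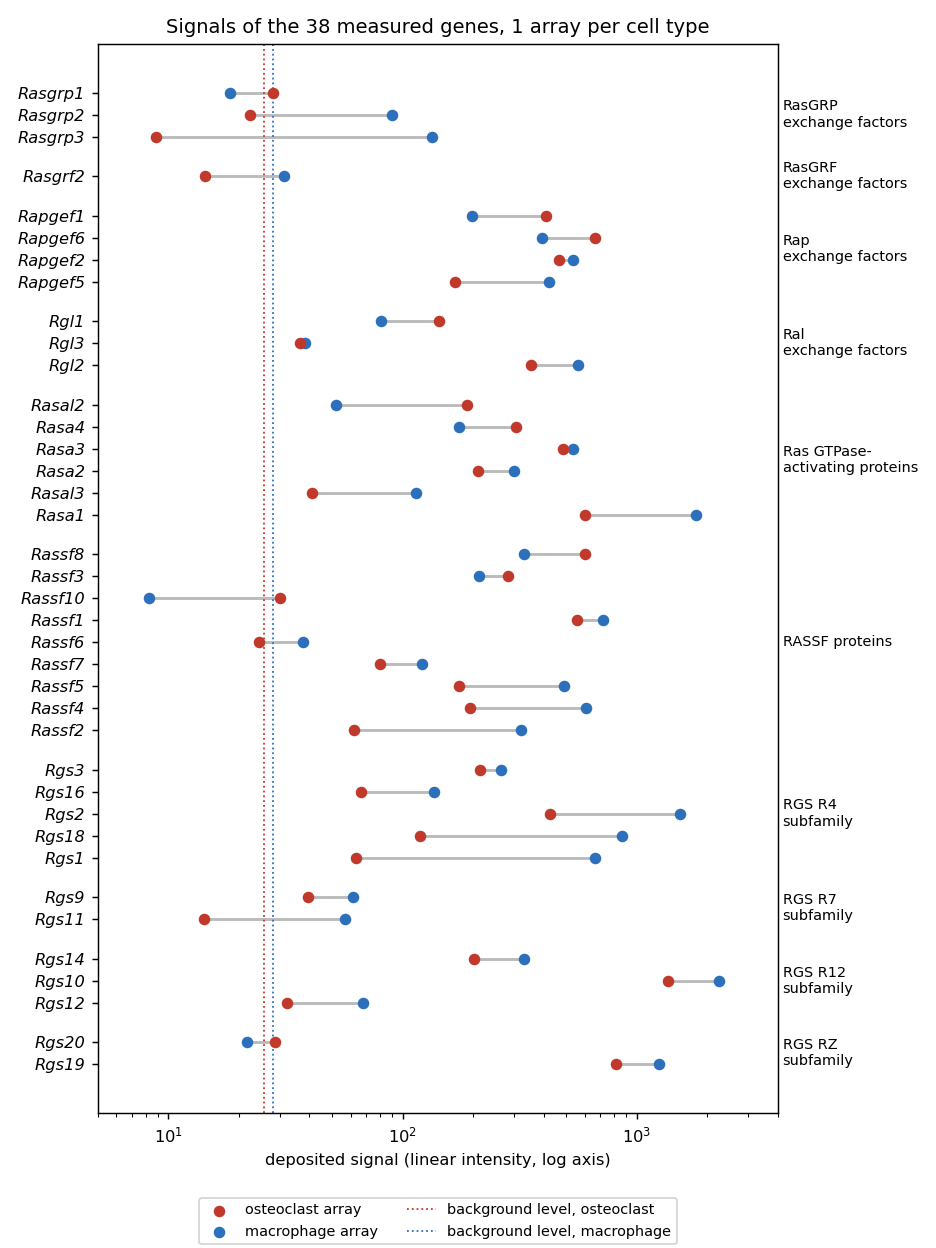
Deposited signal on a log axis of the 38 measured genes, by family, with 1 point for the osteoclast array (red) and 1 for the macrophage array (blue) and the background level of each array as a dotted line. The points lie furthest apart, with both above background, in Rgs1 (63.4 in osteoclasts, 663 in macrophages) and Rgs18 (118 in osteoclasts, 863 in macrophages).

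Among the genes measured in both arrays, RGS genes held the 2 largest differences, and every RGS gene that was 2-fold apart lay on the macrophage side. Of 19 RGS genes, 12 were measured. Of these, 3 (25%) were at least 2-fold lower in osteoclasts, beside a background of 6.34%, and none was 2-fold higher, beside 6.5%. On the deposited scale 6 (50%) were 2-fold lower and none higher, beside backgrounds of 16.9% and 2.65%. Without the shift, genes in general lean to the lower side there. The 3 genes lower relative to the shift belong to the R4 subfamily, most of which are small proteins with little besides the RGS domain. Rgs1, known for damping chemokine receptor signals in lymphocytes and macrophages, had a signal of 63.4 in osteoclasts and 663 in macrophages. It was 7.67-fold lower in osteoclasts (-2.94), the largest difference in either direction among the 30 genes measured in both arrays, from its only probe set.

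Rgs18, an RGS protein of blood cells that in mouse cultures has been described as a brake on osteoclast formation, had 118 in osteoclasts and 863 in macrophages, 5.34-fold lower in osteoclasts (-2.42). Its other probe set had 92.9 in osteoclasts and 404 in macrophages (-1.67), so both probe sets were low in the same array. Rgs2, which acts mainly on the Gq class of alpha subunits, had 426 in osteoclasts and 1535 in macrophages, 2.64-fold lower in osteoclasts (-1.40). The 2 other measured probe sets of Rgs2 gave -1.30 and -1.28, so its 3 measured probe sets lay within 0.12 of each other.

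Of the 12 macrophage markers, 8 lay on the same side by at least 2-fold, among them Fcgr1 (-2.89) and C1qa (-2.04). The other 4, Itgam (-0.90), Cd14 (-0.45), Csf1r (-0.27) and Cd68 (0.05), were under 2-fold, and the part of these markers in the result was not tested. In cells lysed together, fewer cells of a type and less RNA per cell cannot be told apart. Rgs18 is also abundant in platelets. Among 8 megakaryocyte and platelet markers, all measured in at least 1 array, 1 was at least 2-fold higher and 2 were 2-fold lower, with a summed signal of 1981 in the osteoclast array and 8845 in the macrophage array. Most of that sum was Pf4, with 1609 in osteoclasts and 8488 in macrophages, while Itga2b, the platelet integrin chain, had 79.8 in osteoclasts and 74.6 in macrophages; their part in the Rgs18 result was not tested.

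The other R4 genes differed less. Rgs16, inducible in lymphocytes, had 66.3 in osteoclasts and 136.6 in macrophages (-0.59), with its probe sets between -0.59 and 0.08. On the deposited scale Rgs16 was 2-fold lower (-1.04). Rgs3 had 214 in osteoclasts and 264 in macrophages (0.15), which turned to -0.30 on the deposited scale. Rgs4, Rgs5, Rgs8 and Rgs13 were below background in both arrays, so the pericyte-associated Rgs5 and the germinal centre gene Rgs13 gave no measurable signal in either culture. Stromal, osteoblast and mural markers were measured, all 8 in at least 1 array and none 2-fold apart relative to the shift. On the deposited scale 2 of the 8 were 2-fold lower and 0 higher, with a median of -0.76. The summed signal of the 8, without the shift, was 10546 in the osteoclast array and 20160 in the macrophage array. Among them Acta2 had 4186 in osteoclasts and 8020 in macrophages. The part of such cells in the values here was not tested.

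Neither of the RGS genes tied to osteoclast function by knockouts in mice was 2-fold apart relative to the shift. Rgs10, without which mice develop dense bone, had 1359.6 in osteoclasts and 2253 in macrophages (-0.28). Relative to the shift this is smaller than the spread between probe sets, but the deposited difference of Rgs10 (-0.73) is larger than it. Rgs12, which in mouse cells promotes the calcium oscillations of osteoclast formation, had 32.0 in osteoclasts and 67.6 in macrophages (-0.63), and passed 2-fold only on the deposited scale (-1.08). Rgs14, a scaffold that binds both Ras family GTPases and Gi alpha subunits, had 201 in osteoclasts and 331 in macrophages (-0.27). All 3 R12 genes thus lay below the shift by less than 2-fold.

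In the RZ subfamily, Rgs19, also called GAIP, had 815 in osteoclasts and 1245 in macrophages (-0.16), and Rgs20 was just above background in osteoclasts (28.4) and below it in macrophages (21.7). In the R7 subfamily, known mainly from neurons, Rgs9 had 39.5 in osteoclasts and 61.6 in macrophages (-0.19). Rgs11 had 14.2 in osteoclasts, below background, and 56.5 in macrophages, at least 1.61-fold lower in osteoclasts. On the deposited scale its bound was past 2-fold (-1.14). Rgs6, Rgs7 and Rgs17 were measured in neither array, nor were the probe sets chosen for Rgs7bp and Rgs9bp, which encode proteins that anchor R7 members rather than RGS proteins.

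**Figure D2:**
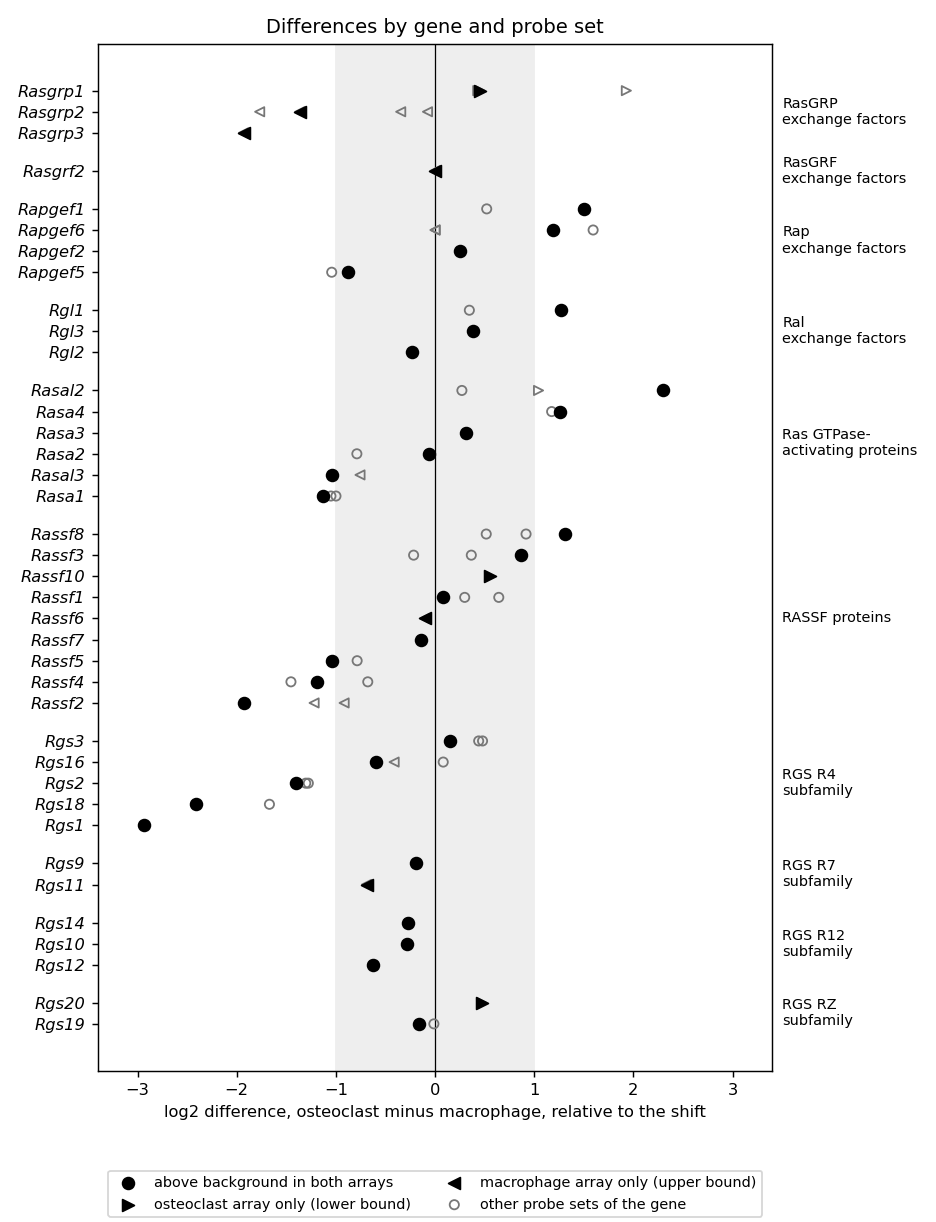
Log2 difference, osteoclast minus macrophage, relative to the shift, for the 38 measured genes (filled marks) and their other measured probe sets (open marks); triangles are bounds and the grey band is the range under 2-fold. No RGS gene lies right of the band, while Rasal2 (2.30), Rapgef1 (1.5), Rassf8 (1.31), Rgl1 (1.27), Rasa4 (1.26) and Rapgef6 (1.19) do.

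The 3 RGS genes with the 2-fold differences are chromosomal neighbours. In the protein-coding gene order of the mouse RefSeq assembly GRCm38.p6, Rgs2, Rgs13, Rgs1, Rgs21 and Rgs18 follow one another on chromosome 1 with no other protein-coding gene between them, a run noticed after the values had been seen. The 3 measured genes of the run were all at least 2-fold lower in osteoclasts, Rgs13 was below background in both arrays and Rgs21 was not analysed here. On the Rgs2 side, the nearest 5 genes held 4 measured ones, Cdc73 (-0.59), Glrx2 (-0.35), Ro60 (-0.57) and Uchl5 (-0.02), none of them 2-fold apart. On the Rgs18 side, Pla2g4a, which encodes the phospholipase that releases arachidonic acid, had 465 in osteoclasts and 1337 in macrophages (-1.08), and Ptgs2, the inducible cyclooxygenase that acts on it, had 56.6 in osteoclasts and 345 in macrophages (-2.16). The third measured gene among the 5 on that side, Odr4, was not 2-fold apart (0.015). Other RGS neighbours were Rgs8 with Rgs16 and Rgs5 with Rgs4, in which Rgs16 alone was measured.

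**Figure D3:**
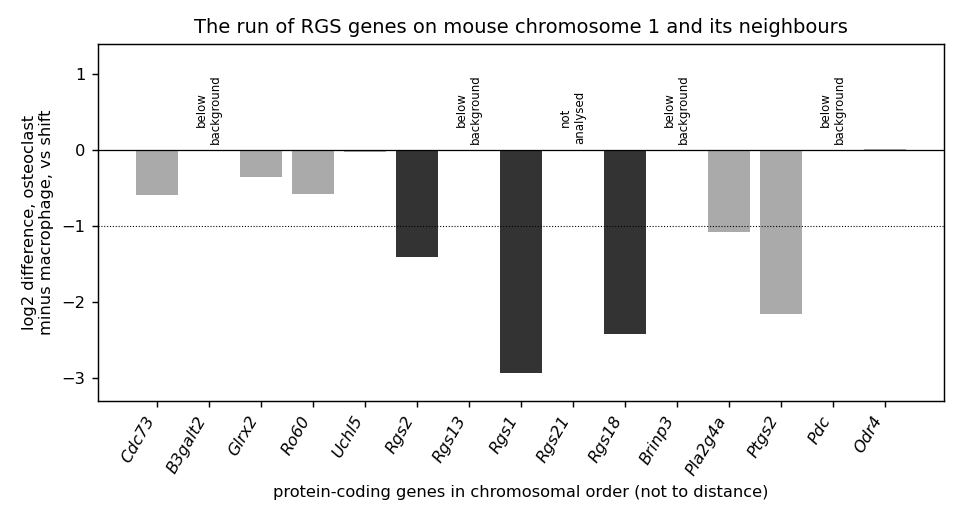
Log2 difference, osteoclast minus macrophage, relative to the shift, for the 5 neighbouring RGS genes on mouse chromosome 1 (dark bars) and the 5 protein-coding genes on either side (grey bars), in chromosomal order and not to distance. Rgs1 (-2.94), Rgs18 (-2.42), Ptgs2 (-2.16), Rgs2 (-1.40) and Pla2g4a (-1.08) pass the dotted 2-fold line.

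Exchange factors went both ways. Of the RasGRP family, which loads Ras and Rap in response to diacylglycerol and calcium, no gene was measured in both arrays. Rasgrp3, a form of B cells and macrophages, had 8.89 in osteoclasts, below background, and 134 in macrophages, at least 3.82-fold lower in osteoclasts. Rasgrp2, the Rap exchange factor of platelets and neutrophils, had 22.3 in osteoclasts, below background, and 90.1 in macrophages, at least 2.57-fold lower in osteoclasts.

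All 4 Rasgrp2 probe sets were below background in osteoclasts and above it in macrophages, with bounds between -1.77 and -0.08 and a median of -0.86, under 2-fold. Rasgrp1, the form of T cells, pointed the other way. Its chosen probe set had 28.1 in osteoclasts and 18.2 in macrophages, and another had 78.0 in osteoclasts and 2.42 in macrophages, at least 3.81-fold higher in osteoclasts. All 3 of its measured probe sets passed background in osteoclasts only, and Rasgrp4 was measured in neither array.

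Markers of the lymphocytes that use these factors were dim. Of 6 B lymphocyte markers, Cd79b and Pax5 passed background, in the macrophage array only, with a summed signal of the 6 of 66.0 in the osteoclast array and 136.4 in the macrophage array. Of 6 T and NK lymphocyte markers, Cd3e, Cd3d and Cd3g were below background in both arrays and Cd8a alone was measured, in macrophages, with a summed signal of 57.0 in the osteoclast array and 88.0 in the macrophage array. Granulocyte markers ran the other way from Rasgrp2, with 9 of 11 at least 2-fold higher in osteoclasts, 1 lower and a summed signal of 6445 in the osteoclast array and 3569 in the macrophage array; on the deposited scale 3 were 2-fold higher. The platelet markers given above ran the same way as Rasgrp2 only in their sum, through Pf4 (-1.95). Of these 8 markers, 5 lay above the shift, among them Vwf (2.22), and 3 below it. Their median was 0.39, and -0.06 on the deposited scale. The part of either set in the Rasgrp2 result was not tested.

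The RasGRF family, known from neurons, was at background. Rasgrf2 had 14.3 in osteoclasts and 31.2 in macrophages, too close to background for a fold relative to the shift, and Rasgrf1 was measured in neither array.

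Rap exchange factors, which switch on the GTPase that activates integrins, had 4 measured genes. Of these, 2 were at least 2-fold higher in osteoclasts, beside a background of 6.5%, and none was 2-fold lower, beside 6.34%. On the deposited scale 1 was 2-fold higher, Rapgef1, and 1 was 2-fold lower, Rapgef5, beside backgrounds of 2.65% and 16.9%. Rapgef1, which is recruited to adhesion sites through Crk adaptors, had 409.9 in osteoclasts and 198 in macrophages, 2.83-fold higher in osteoclasts (1.5). Its dimmer probe set, with 57.8 in osteoclasts and 55.0 in macrophages, gave 0.52. Rapgef6, a PDZ-domain exchange factor, had 662 in osteoclasts and 396 in macrophages, 2.28-fold higher (1.19), with its other probe set measured in both arrays at 1.59; on the deposited scale it was under 2-fold (0.74). In 2 dim Rapgef6 probe sets, with 23.4 and 4.22 in osteoclasts and 34.7 and 29.2 in macrophages, the macrophage array alone passed background, too narrowly for a fold relative to the shift.

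Rapgef2, the close relative of Rapgef6, had 465 in osteoclasts and 534 in macrophages (0.25), which turned to -0.20 on the deposited scale. Rapgef5 lay on the macrophage side, with 168 in osteoclasts and 421 in macrophages (-0.88, and -1.32 on the deposited scale), and its other measured probe set gave -1.04. The probe set chosen for Rapgef3, the cyclic AMP sensor Epac1, was below background in both arrays, while another of its 5 probe sets had 5.36 in osteoclasts and 45.5 in macrophages, at least 1.30-fold lower in osteoclasts. Members of this family therefore lay on both sides of the shift.

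Of the Ral exchange factors, Ras effectors that pass the signal on to Ral, 1 of 3 was at least 2-fold apart. It was higher in osteoclasts, beside a background of 6.5%, and none was 2-fold lower, beside 6.34%. Rgl1 had 143 in osteoclasts and 81.3 in macrophages, 2.41-fold higher in osteoclasts (1.27), with its other probe set at 0.35 and a value under 2-fold on the deposited scale (0.82). Rgl2 had 353 in osteoclasts and 564 in macrophages (-0.23), and Rgl3 had 36.6 in osteoclasts and 38.3 in macrophages (0.38, and -0.07 on the deposited scale).

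GTPase-activating proteins of Ras were split evenly, with 2 of 6 measured genes at least 2-fold higher in osteoclasts and 2 at least 2-fold lower. The backgrounds beside these counts were 6.5% and 6.34%. On the deposited scale 1 was 2-fold higher and 2 were 2-fold lower, beside 2.65% and 16.9%. Rasal2 had 188 in osteoclasts and 52.1 in macrophages, 4.93-fold higher in osteoclasts (2.30), the largest difference on the osteoclast side among the 30 genes measured in both arrays. Its probe sets disagreed by more than the usual spread, since another had 77.4 in osteoclasts and 87.6 in macrophages (0.27), and the third was measured in osteoclasts only, at 42.2, at least 2.06-fold higher. Rasa4, which is switched on by calcium, had 304 in osteoclasts and 174 in macrophages, 2.39-fold higher (1.26), with its other probe set at 1.18; on the deposited scale it was under 2-fold (0.81).

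Rasa1, the RasGAP that docks on activated receptor tyrosine kinases through its SH2 domains, had 601 in osteoclasts and 1800.3 in macrophages, 2.20-fold lower in osteoclasts (-1.13). Its 3 probe sets were close together, at -1.13, -1.05 and -1.0. Rasal3, a form of blood cells, had 40.9 in osteoclasts and 114.7 in macrophages, 2.05-fold lower (-1.04), and was under 2-fold when the median of its probe sets was taken (-0.90). Rasa2 (-0.06, with another probe set at -0.79) and Rasa3 (0.31, and -0.14 on the deposited scale) differed by less than 2-fold, and Rasal1 was measured in neither array.

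Among 9 measured RASSF genes, 3 were at least 2-fold lower in osteoclasts, beside a background of 6.34%, and 1 was at least 2-fold higher, beside 6.5%. On the deposited scale 3 were 2-fold lower and none was 2-fold higher, beside 16.9% and 2.65%. Rassf2, whose loss alters bone remodelling in mice, had 61.9 in osteoclasts and 321 in macrophages, 3.80-fold lower in osteoclasts (-1.92). Both of its other probe sets were below background in osteoclasts and above it in macrophages, at 81.5 and 66.1. Rassf4 had 195 in osteoclasts and 606 in macrophages, 2.28-fold lower (-1.19), with its 3 probe sets between -1.45 and -0.68.

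Rassf5, also called RAPL, links Rap to integrins and to the kinase Mst1 in lymphocytes, and had 174 in osteoclasts and 489.8 in macrophages, 2.06-fold lower in osteoclasts (-1.04). That value lay at the 2-fold line and was under it after quantile normalization (-0.999), over the median of its probe sets (-0.92) and in its specific probe set (-0.79). Rassf8, which is found at cell junctions, had 600.2 in osteoclasts and 329.6 in macrophages, 2.49-fold higher in osteoclasts (1.31), with its other probe sets between 0.52 and 0.92 and a value under 2-fold on the deposited scale (0.86). Rassf3 (0.86, with its probe sets from -0.22 to 0.86), Rassf1 (0.08) and Rassf7 (-0.14) differed by less. Rassf6 and Rassf10 were each just above background in 1 array, Rassf6 in macrophages and Rassf10 in osteoclasts, and Rassf9 in neither.

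Agreement between probe sets could be checked for 18 of the 52 genes, which had at least 2 probe sets measured in both arrays. In 16 of them these probe sets lay on the same side of the shift, and Rassf3 and Rgs16 were the exceptions. The same side does not mean a similar size, since those of Rasal2 were 2.03 apart. Which genes agree also depends on the shift. On the deposited scale the probe sets of Rasal2 (-0.18 and 1.85) and Rgl1 (-0.10 and 0.82) had opposite signs. So did probe sets of Rassf1, Rgs3 and Rassf3, while those of Rgs16 had the same sign. The pooled SD of the probe sets of the 18 genes was 0.46, beside 0.43 over all genes. For 16 genes a single probe set was present on the array, among them Rgs1 and Rgs10.

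**Figure D4:**
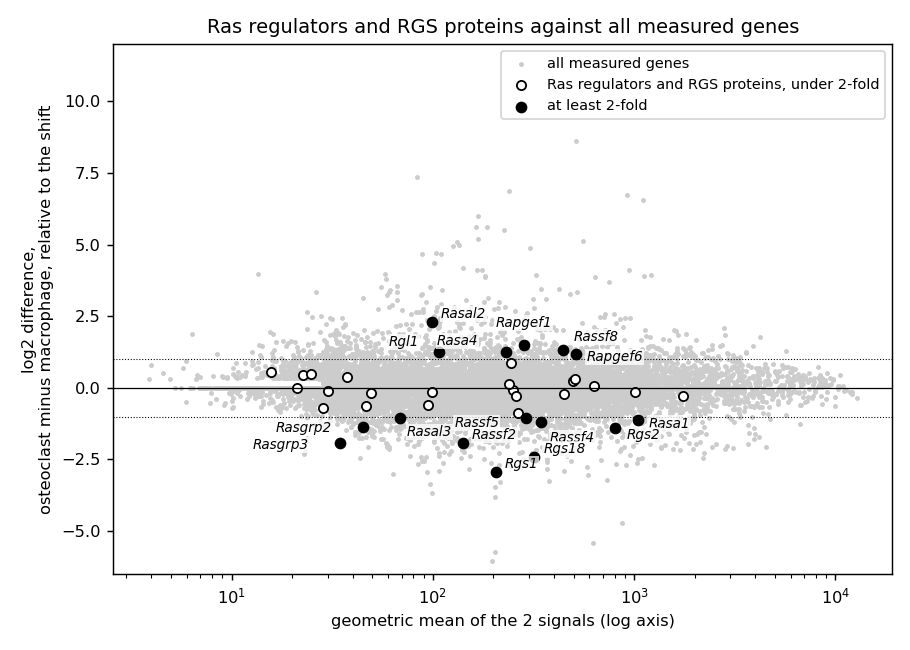
Log2 difference, osteoclast minus macrophage, relative to the shift, against the geometric mean of both signals on a log axis, for all 11539 measured genes (grey) and the 38 measured Ras regulators and RGS proteins (circles, filled where at least 2-fold apart). The filled circles range from Rgs1 at -2.94 to Rasal2 at 2.30, inside the range of all genes, which runs from -6.04 to 8.62.

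Promoters of the genes at least 2-fold apart are shown for the sequence next to their starts. Of the 52 genes, 40 had an entry in the RefSeq promoter table of assembly GRCm38.p6, and of the 16 genes at least 2-fold apart 13 did; Rgs1, Rgs18 and Rassf8 had none. The 250 bases before the annotated start were searched on both strands for the AP-1 site TGANTCA, the NFAT core GGAAA, the PU.1 core GAGGAA, the E-box CACGTG bound by MITF among others, and the core TGACG of the cyclic AMP response element. The NFAT and PU.1 cores can overlap. Among genes measured in both arrays with 1 annotated start, the windows of the 2 with the largest differences towards macrophages and the 2 with the largest towards osteoclasts are printed 5′ to 3′ on the gene's strand, with matches in capitals.
Rassf2, chr2:132030325-132030574, minus strand: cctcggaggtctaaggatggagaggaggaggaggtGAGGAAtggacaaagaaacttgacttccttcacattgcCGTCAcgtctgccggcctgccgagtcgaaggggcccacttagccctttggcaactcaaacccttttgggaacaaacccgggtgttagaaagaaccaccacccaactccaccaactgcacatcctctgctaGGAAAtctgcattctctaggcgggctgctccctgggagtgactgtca
Rgs2, chr1:144004150-144004399, minus strand: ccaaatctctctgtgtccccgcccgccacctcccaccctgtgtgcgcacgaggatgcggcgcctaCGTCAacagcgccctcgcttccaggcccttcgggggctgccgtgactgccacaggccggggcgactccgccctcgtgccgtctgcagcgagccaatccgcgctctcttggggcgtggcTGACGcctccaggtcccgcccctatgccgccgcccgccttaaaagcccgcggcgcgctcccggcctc
Rasal2, chr1:157412596-157412845, minus strand: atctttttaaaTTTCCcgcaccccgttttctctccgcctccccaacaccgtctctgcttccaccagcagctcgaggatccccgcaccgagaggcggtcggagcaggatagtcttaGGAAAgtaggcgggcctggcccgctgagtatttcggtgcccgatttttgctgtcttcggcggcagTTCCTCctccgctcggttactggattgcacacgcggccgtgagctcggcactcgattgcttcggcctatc
Rapgef1, chr2:29619470-29619719, plus strand: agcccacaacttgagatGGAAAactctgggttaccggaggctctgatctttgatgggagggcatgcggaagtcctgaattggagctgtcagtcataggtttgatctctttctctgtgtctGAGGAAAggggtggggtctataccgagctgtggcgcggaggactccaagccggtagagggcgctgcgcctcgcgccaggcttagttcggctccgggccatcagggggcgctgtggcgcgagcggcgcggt

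The Rassf2 window held a PU.1 core, a CRE core and an NFAT core, and the Rgs2 window held a pair of CRE cores, which begin 185 and 67 bases before the start. Rasal2 and Rapgef1 each held a pair of NFAT cores and a PU.1 core, and in Rapgef1 the PU.1 core overlaps the second NFAT core. Over the genes at least 2-fold apart, the 5 higher genes had 6 windows and the 8 lower genes had 11. The NFAT core was in 5 of 6 windows of the higher genes and in 5 of 11 of the lower genes, beside 55.6% of all 32851 windows. By gene this was 4 of 5 higher and 5 of 8 lower. The CRE core was in 1 of 6 and 4 of 11 windows (1 of 5 and 3 of 8 genes), beside 17.8% of all windows. The PU.1 core was in 2 of 6 and 3 of 11 (2 of 5 and 3 of 8 genes), beside 23.3%. The E-box was in 1 of 6 and 2 of 11, beside 6.02%, and both lower windows were of Rasal3. The AP-1 site was in none of either, beside 6.75%. Genes with several annotated starts gave several windows, and a match describes letters and not bound sites.

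The GTPases and G proteins that these regulators act on were read from lists of other genes. Of 13 Ras family GTPases, all measured in both arrays, 1 was at least 2-fold higher in osteoclasts and 3 were at least 2-fold lower, with a median of -0.20. Rala, the Ral GTPase of secretion and exocytosis, had 1132 in osteoclasts and 612 in macrophages, 2.53-fold higher in osteoclasts (1.34), and under 2-fold on the deposited scale (0.89). Rap2b had 412 in osteoclasts and 1832 in macrophages, 3.26-fold lower (-1.70), and Rap2a (-1.31) and Rras2 (-1.12), an R-Ras relative, were also lower. Rap1b (-0.32), Rap1a (-0.07) and Rap2c (-0.03) differed by less than the spread between probe sets relative to the shift. On the deposited scale Rap1b (-0.77), Rap1a (-0.52) and Rap2c (-0.48) differed by more than that spread.

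Among other exchange factors, Dock4 had 91.0 in osteoclasts and 362 in macrophages (-1.54), the only 1 of 5 measured genes past 2-fold. Among 12 other GTPase-activating proteins, Sipa1l3, of a family that acts on Rap, had 329 in osteoclasts and 130.5 in macrophages (1.78), and Ralgapa2, a subunit of the Ral GTPase-activating complex, had 60.6 in osteoclasts and 232 in macrophages (-1.49). Of 16 Ras effectors and ERK pathway genes, 3 were at least 2-fold higher in osteoclasts, Pik3cb (1.45), Radil (at least 2.06-fold) and Rin3 (1.01), and 2 were at least 2-fold lower, the Rap1 effector gene Apbb1ip (-1.56) and Pik3cg (-1.34), the phosphoinositide kinase driven by G protein-coupled receptors. Their median was 0.23, which turned to -0.22 on the deposited scale, where 1 of the 16 was 2-fold higher and 3 were 2-fold lower. Pik3cb was the gene that stayed 2-fold higher there (1.0), while Rin3 had 0.57 and Radil a bound of 0.59. Of 6 measured Sprouty and Spred genes, which inhibit the pathway, Spry1 was past 2-fold (1.11), though not on the deposited scale (0.66).

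Of 9 measured alpha subunits of G proteins, 2 were at least 2-fold lower in osteoclasts and none was 2-fold higher, with a median of -0.42. They were Gna15 of the Gq class (-1.26, 29.2 in osteoclasts and 95.5 in macrophages) and Gna12 (-1.15, 200.2 in osteoclasts and 608 in macrophages). Of 12 beta and gamma subunits, Gng2 was 2.56-fold lower (-1.36) and Gng4 at least 2.06-fold higher, a bound of 0.60 on the deposited scale. The median of the beta and gamma subunits was 0.21, and -0.24 on the deposited scale. Among 16 other measured proteins with an RGS domain or a Galpha-binding motif, Grk3, a receptor kinase with an RGS-like domain, had 521 in osteoclasts and 99.8 in macrophages, 7.13-fold higher in osteoclasts (2.83), and Gpsm2 was also higher (1.32) while Gpsm1 was at least 2.57-fold lower. On the deposited scale Grk3 alone stayed 2-fold higher (2.38), Gpsm2 had 0.87 and 5 of the 16 were 2-fold lower, and the median of 0.05 turned to -0.40. Of 9 measured Hippo kinases and RASSF partners, 2 were 2-fold lower, the kinase gene Lats2 (-1.16) and Map1s (-1.0), and none was 2-fold higher. On the deposited scale 4 of the 13 Ras family GTPases, 4 of the 12 other GTPase-activating proteins and 4 of the 9 alpha subunits were 2-fold lower. No list was tested. The shares to set beside each count are the backgrounds of 6.5% higher and 6.34% lower, and on the deposited scale 2.65% higher and 16.9% lower.

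**Figure D5:**
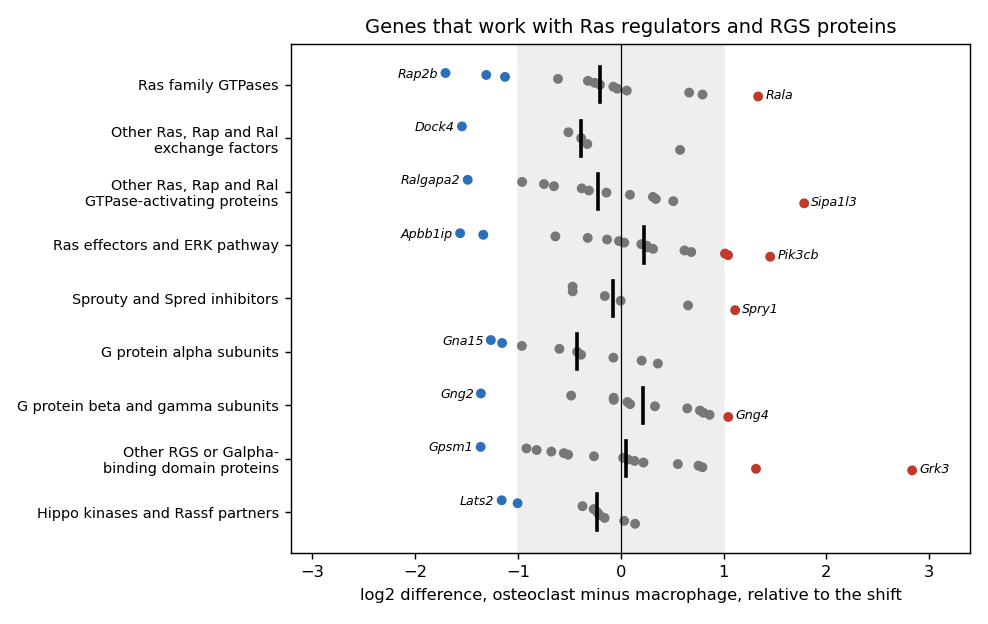
Log2 difference, osteoclast minus macrophage, relative to the shift, of every measured gene in 9 lists of partners of Ras regulators and RGS proteins, 1 point a gene, with the list median as a black bar and the range under 2-fold as a grey band. Points right of the band (red) include Grk3 at 2.83 and Sipa1l3 at 1.78, and points left of it (blue) include Rap2b at -1.70 and Apbb1ip at -1.56. The 3 medians above 0 turn negative on the deposited scale.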

How the data were processed

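The authors deposited 1 linear intensity per probe set and array, and per the labels' protocols the biotinylated cRNA came from 1 µg of total RNA by the one-cycle Affymetrix method. How probes were combined into probe set values and whether arrays were scaled is not stated in the sources used here. Of 45101 probe sets, 64 were controls and were left out. The platform annotation gave 34945 of the rest 1 symbol, 932 several and 9160 none. All 52 members were found in RefSeq by Entrez identifier under the same symbol. The digit was required after every prefix, and without that 1 more gene, Rapgefl1, would join, whose signal was below background in both arrays.

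Signals below the background level were raised to it, the difference of log2 values was taken (Python 3.11.15, pandas 2.3.3, numpy 2.4.6), and the median shift was subtracted. A bound on the wrong side of the shift was set to 0. Genes were counted at 2-fold (1 on the log2 scale), a rule of size and not a test. The script was tested on simulated data. With 1 array per group the number of arrays limits the precision. The genes named are those at least 2-fold apart, Rgs10, Rgs12, Rgs18 and Rasgrp3, the gene of highest mean signal in a family with none, and, from each partner list, up to 3 genes per direction past 2-fold; other genes are named to account for every member or were chosen after their values were seen. The members, lists and rules were chosen with earlier results of these data known. Of 210 list genes, 20 are not analysed here. The alternatives tried were the deposited scale, quantile normalization, a background level at the 40th percentile of all probe sets, the median over a gene's probe sets, and specific probe sets only.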

Additional observations from a re-analysis of the deposited data

How the results depend on the processing

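The count of genes at least 2-fold higher in osteoclasts was 6 of 38 as reported. It was 2 of 38 on the deposited scale and 3 of 40 with the median over probe sets, against backgrounds of 2.65% and 5.94%. With quantile normalization it was 6 of 38 (background 6.11%). It was 8 of 43 with the background level at the 40th percentile (7.11%) and 6 of 31 with specific probe sets only (6.69%). The count at least 2-fold lower was 10 of 38 as reported. It was 14 of 38 on the deposited scale and 7 of 40 with the median over probe sets, against backgrounds of 16.9% and 5.49%. With quantile normalization it was 9 of 38 (background 6.67%). It was 11 of 43 with the background level at the 40th percentile (6.99%) and 9 of 31 with specific probe sets only (6.56%). Of the 10 genes, 7 were kept with the median over probe sets, 9 with quantile normalization and with specific probe sets, and 10 with the other alternatives. The median over measured genes, -0.15 as reported, was -0.60 on the deposited scale, where the median shift is not subtracted, and between -0.18 and -0.10 under the others. Rapgef6, Rassf8 and Rgl1 fell under 2-fold in both the first 2 alternatives named, Rasa4 on the deposited scale, Rasal3 and Rasgrp2 with the median over probe sets, and Rassf5 with that median, quantile normalization and specific probe sets. No gene at least 2-fold apart changed direction under any of the 5 alternatives that gave it a value. With the lower background level, Rasgrp1 and Rassf10 passed 2-fold on the osteoclast side and Rgs11 on the macrophage side. Dim signals limit the RasGRP and RasGRF families, whose differences are bounds. No paired analysis was possible because each cell type has 1 array.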
